A study of Arabidopsis thaliana with 6 samples.

Results

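In wild-type Arabidopsis thaliana embryos 16 genes had clear signal on every array. In embryos homozygous for dcl1-15 the same genes lay in the lower part of the scale. They were chosen by level, as probe sets naming 1 gene with all 3 wild-type values at log2 of 7 or more and all 3 dcl1-15 values under log2 of 5. Of the 9631 probe sets with 1 named gene, representing 9532 genes, 17 met these levels, and 1 was left out because its symbol belongs to an enzyme family set aside by the choice. The remaining 16 probe sets stand for 16 genes and make up 0.166% of the probe sets with 1 named gene. A further 15 probe sets with no named gene met the levels and are not described. Because the levels chose the genes, the difference between genotypes is a description for them and carries no test.

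Wild-type embryos were DCL1/DCL1, taken at the torpedo stage, when the cotyledons elongate, from wild-type siblings in a family descended from a DCL1/dcl1-15 parent. Mutant embryos were dcl1-15/dcl1-15, picked from siliques of heterozygous plants in which normal siblings had reached that stage, so the comparison is matched by the siblings' stage. Both genotypes share a Ws background repeatedly crossed to Landsberg erecta, each sample pooled 300 embryos, and 3 samples per genotype, called biological replicates by the labels, were hybridised to 1 array each. Values are normalized log2 levels, with array medians between 6.34 and 6.48.

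DCL1 is the Dicer-like enzyme that releases most plant microRNAs from their precursors, and microRNAs hold down many transcription factors during embryo patterning. Whether any of the 16 genes is under such control was not analysed here. In RNA from pooled embryos, fewer cells of a type and less transcript per cell cannot be told apart. The annotation used here names each of the 16 genes by its locus tag alone, as it does 86.2% of all measured genes. The protein families given for 12 of them are general background on Arabidopsis genes, and no role is given for AT1G29270, AT4G29030, AT1G10990 and AT1G02180.

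By role, 4 of the 16 genes encode enzymes that cut pectin, 2 encode a transporter and a receptor-like kinase, and 6 encode varied proteins of metabolism, redox control, protein folding and RNA modification. Over the 16 genes the difference of dcl1-15 minus wild-type means ran from -2.78 to -6.81 on the log2 scale, with a median of -4.10, against a median of -0.07 over all 17122 probe sets. In linear terms the levels were 6.86-fold to 112-fold lower with a median of 17.2-fold, and 9 of the 16 were at least 16-fold lower. All 16 were among the probe sets called lower in the limma fit over the whole table, and the choice of genes fixes that result. Of all probe sets tested, 39.1% were called in either direction, 20.8% lower and 18.3% higher.

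**Figure D1:**
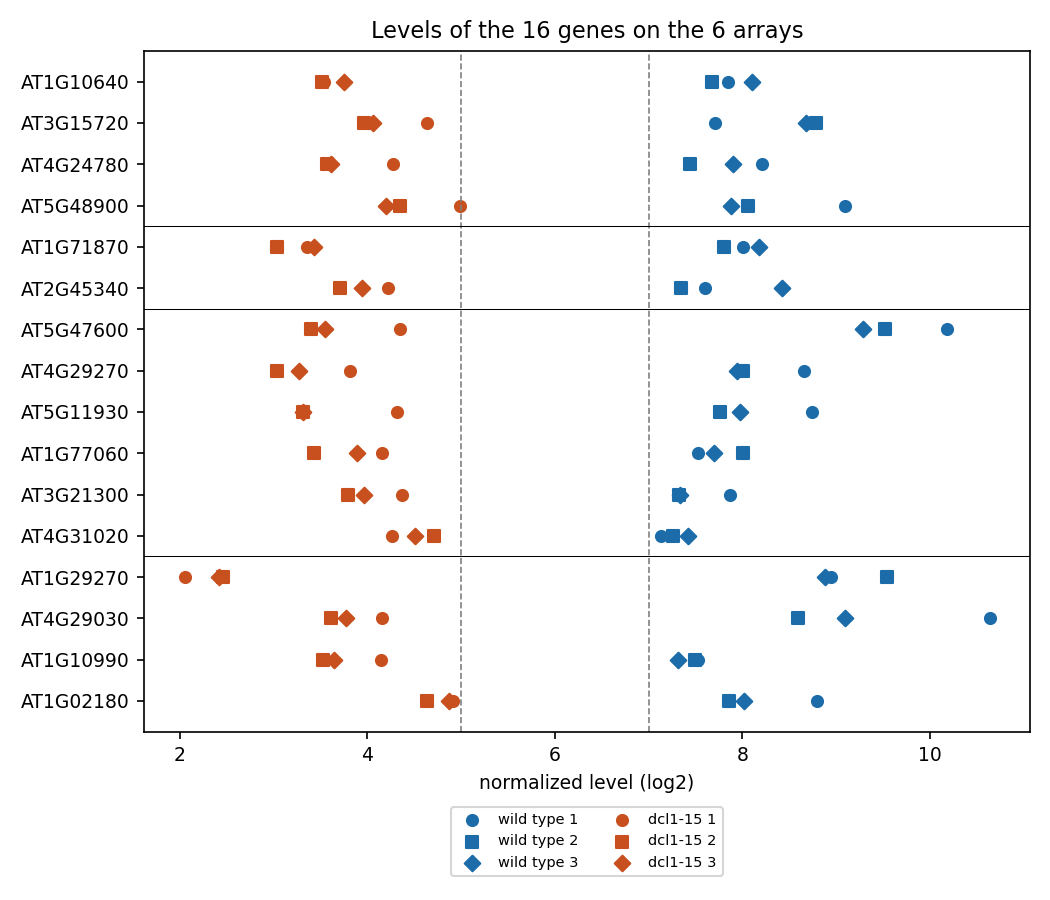
Normalized level (log2, horizontal axis) of each of the 16 genes (rows) on the 3 wild-type arrays (blue) and the 3 dcl1-15 arrays (orange), with marker shape giving the replicate number. Dashed lines mark the levels of 7 and 5 that chose the genes, and horizontal lines separate, from the top, pectin enzymes, transport and signalling, metabolism and other, and genes with no role given. The wild-type points lie between 7.13 and 10.64 and the dcl1-15 points between 2.05 and 4.99.

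Pectin is a main polysaccharide of young plant cell walls and of the layer that joins neighbouring cells. Its homogalacturonan chains are delivered to the wall in a methyl-esterified form, pectin methylesterases remove the methyl groups, and pectate lyases and polygalacturonases cut the chains. Of the pectate lyase genes, AT4G24780 measured 8.21, 7.44 and 7.90 in wild type and 4.28, 3.57 and 3.61 in dcl1-15. The other pectate lyase gene, AT5G48900, measured 9.09, 8.06 and 7.88 in wild type and 4.99, 4.35 and 4.20 in dcl1-15. In both, replicate 1 was the highest array of each genotype, and the genotype means differed by -4.03 in AT4G24780 and -3.83 in AT5G48900.

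The polygalacturonase family gene AT1G10640 measured 7.85, 7.67 and 8.10 in wild type and 3.54, 3.52 and 3.75 in dcl1-15. AT3G15720, a second gene of that family, measured 7.71, 8.79 and 8.68 in wild type and 4.64, 3.97 and 4.06 in dcl1-15. AT1G10640 spread little within each genotype (SD 0.21 and 0.13, n = 3 each) and was 19.3-fold lower in dcl1-15. AT3G15720 was 18.0-fold lower, its wild-type value lowest on replicate 1, where its dcl1-15 value was highest. The differences of the 4 pectin enzyme genes ran from -3.83 to -4.27. The same values chose these genes, so the closeness of their differences is a description and carries no test.

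AT1G71870 encodes a transporter of the multidrug and toxic compound extrusion (MATE) family, membrane proteins that export organic compounds. It measured 8.01, 7.81 and 8.18 in wild type and 3.36, 3.04 and 3.43 in dcl1-15, a 26.4-fold lower level with little spread in either genotype (SD 0.19 and 0.21, n = 3 each). AT2G45340 encodes a leucine-rich repeat receptor-like kinase, a class of cell-surface proteins that sense signals outside the cell. Its wild-type values of 7.60, 7.35 and 8.42 spread more than its dcl1-15 values of 4.22, 3.71 and 3.94, and its mean was 14.2-fold lower.

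AT5G47600, of the HSP20-like chaperone family, measured 10.18, 9.52 and 9.29 in wild type and 4.35, 3.40 and 3.55 in dcl1-15. It was 59.4-fold lower. AT5G11930 encodes a CC-type glutaredoxin, a plant-specific class of small redox proteins, and measured 8.75, 7.77 and 7.97 against 4.31, 3.31 and 3.31. AT4G29270, an acid phosphatase gene of the haloacid dehalogenase (HAD) superfamily, measured 8.66, 8.003 and 7.94 against 3.82, 3.04 and 3.28. In AT5G47600, AT5G11930 and AT4G29270 replicate 1 was the highest array in both genotypes, and the lowest wild-type value stayed above the highest dcl1-15 value by 4.93, 3.45 and 4.12 in that order.

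AT1G77060, of a family related to phosphoenolpyruvate mutase and isocitrate lyase, measured 7.53, 8.01 and 7.70 in wild type and 4.16, 3.43 and 3.90 in dcl1-15. AT3G21300, an RNA methyltransferase family gene, measured 7.86, 7.33 and 7.33 against 4.38, 3.79 and 3.97. AT4G31020 encodes an alpha/beta hydrolase and measured 7.13, 7.27 and 7.42 against 4.27, 4.72 and 4.51. AT4G31020 had the smallest difference of the 16, -2.78, and the others differed by -3.92 (AT1G77060) and -3.46 (AT3G21300).

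Among the genes with no role given, AT1G29270 had the largest difference, with values of 8.95, 9.54 and 8.89 in wild type and 2.05, 2.46 and 2.42 in dcl1-15. Its 112-fold lower level depended on where the low end was drawn and came to 34.9-fold with every value under log2 of 4 raised to 4. AT4G29030 measured 10.64, 8.60 and 9.10 in wild type and 4.16, 3.62 and 3.77 in dcl1-15. The wild-type arrays of AT4G29030 spread over 2.04, more than in any other of the 16 genes, and its fold was 48.3 with all arrays and 32.0 without wild-type replicate 1. AT1G10990 measured 7.52, 7.49 and 7.32 against 4.15, 3.52 and 3.65, and AT1G02180 8.79, 7.86 and 8.02 against 4.92, 4.63 and 4.87. Their differences were -3.67 and -3.42, and the genotypes were separated by gaps of 3.16 and 2.94 between the nearest values.

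**Figure D2:**
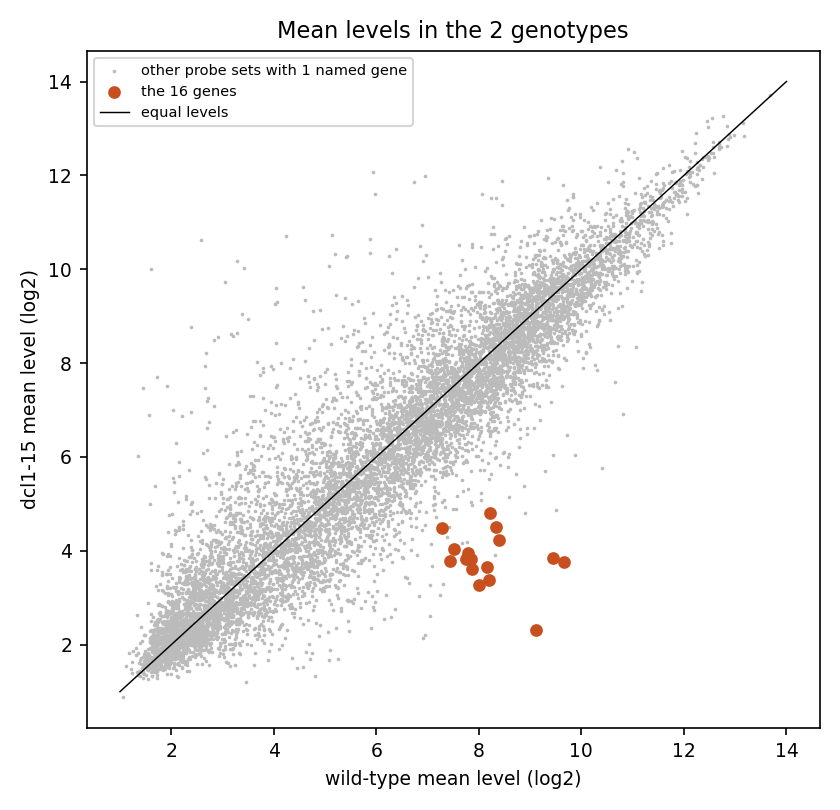
Mean dcl1-15 level (log2, vertical axis) against mean wild-type level (log2, horizontal axis) for every other probe set with 1 named gene (grey) and the 16 genes (orange), with the line of equal levels. The 16 genes lie far below the line, at wild-type means of 7.27 to 9.66 and dcl1-15 means of 2.31 to 4.81.

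The term switched off holds only in part for these values, as the scatter of mean levels shows by the other probe sets that lie lower. The first quartile of the 3 dcl1-15 arrays was 3.77 to 3.78, and 22 of the 48 dcl1-15 values of the 16 genes lay below it on their own array. In 3 genes, AT1G29270, AT1G71870 and AT1G10640, all 3 dcl1-15 values were below that quartile. In 5 genes, AT3G15720, AT5G48900, AT3G21300, AT1G02180 and AT4G31020, no dcl1-15 value was. Detection calls were not used here, so the data do not show which of the genes still had transcript in dcl1-15. With every value under log2 of 4 raised to 4, the median fold was 14.4 rather than 17.2, and in AT1G29270, AT4G29270 and AT1G71870 the fold was smaller by over 1.5 times (34.9-fold, 18.4-fold and 15.99-fold lower).

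The choice of 16 genes rests on close values at its edge. Just inside, AT5G48900 reached 4.99 in dcl1-15, AT1G02180 reached 4.92, and the lowest wild-type value of AT4G31020 was 7.13. Just outside, AT4G16830 reached 5.002 in dcl1-15, while CLE41, which encodes a peptide signal of vascular tissue, fell short with a wild-type value of 6.997, as did AT5G66940 with 6.93. With genotype means held to the same levels in place of every array, 36 genes would be included. With wild-type values at 8 or more and dcl1-15 values under 4, AT1G29270 alone would remain. In the opposite direction, with all wild-type values under 5 and all dcl1-15 values at 7 or more, there were 40 genes.

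**Figure D3:**
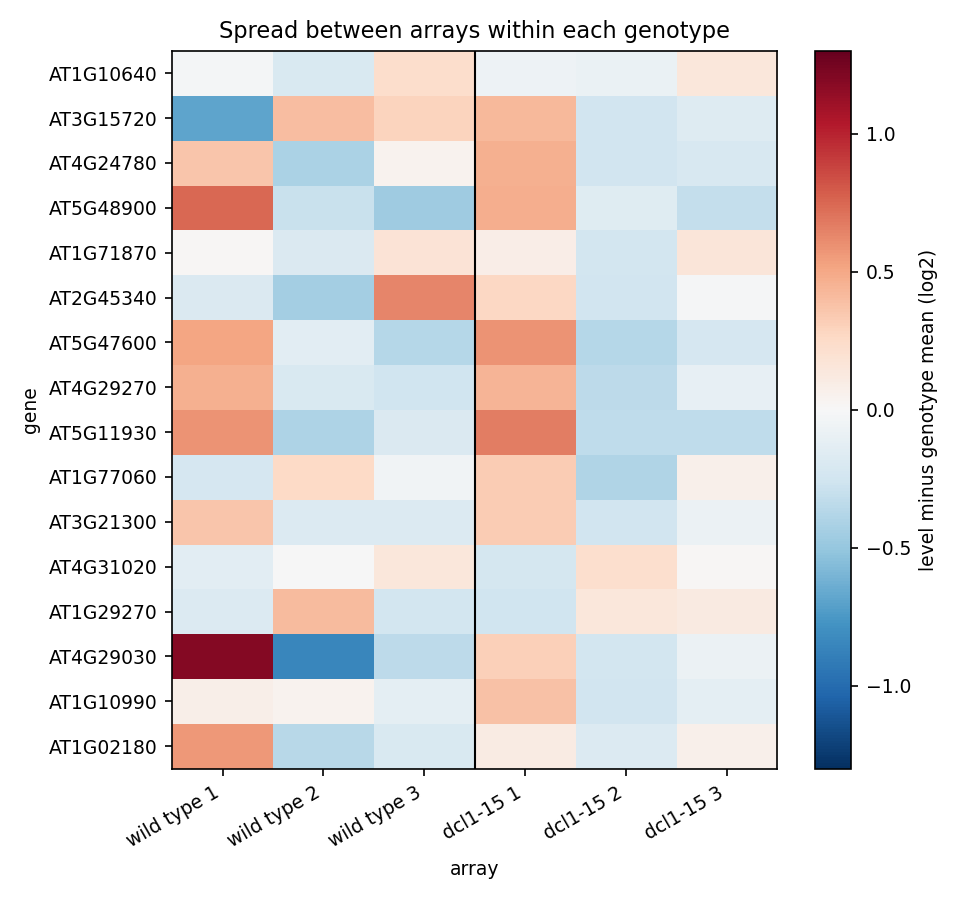
Level of each of the 16 genes (rows) on each array (columns) minus the mean of its own genotype (log2, colour). Red marks a value above the genotype mean and blue one below it, with 12 of the 16 genes highest on dcl1-15 replicate 1 and 9 highest on wild-type replicate 1.

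The choice held the 3 arrays of a genotype to the same level but used their values, so their order is a description and carries no test. There were 21 genes without dcl1-15 replicate 1 and 16 without replicate 2 or replicate 3. For wild type the number was 19 without replicate 1 or replicate 3 and 16 without replicate 2. In dcl1-15 embryos, replicate 1 held the highest value in 12 of the 16 genes and replicate 2 the lowest in 13. Among the 3434 other probe sets with 1 named gene and all dcl1-15 values under 5, replicate 1 was highest in 41.3% and replicate 2 lowest in 30.3%. In wild type, replicate 1 was highest in 9 of the 16 genes, against 44.8% of the 3397 other probe sets with all wild-type values at 7 or more. The same 9 genes were highest on replicate 1 in both genotypes, which the map of deviations shows as red cells in both columns of that number. The exceptions differed from gene to gene, with AT1G29270 and AT4G31020 lowest on dcl1-15 replicate 1.

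The 16 genes also had a higher median SD between replicates than the other probe sets within the same limits. Those probe sets were not matched to the 16 in level, and the part of level in the SD was not tested. Their median SD was 0.39 in wild type, against 0.23 in the other probe sets at 7 or more, and 0.32 in dcl1-15, against 0.20 in the other probe sets under 5 (n = 3 arrays each). The smallest gap between the lowest wild-type and highest dcl1-15 value was 2.42, in AT4G31020, and the widest was 6.43, in AT1G29270. With any 1 array left out, folds of the 16 genes stayed within 1.5 times of those with all arrays, except that of AT4G29030 given above.

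Markers of the tissues around the embryo moved the other way. Of 6 measured markers of seed coat and endosperm, of 19 listed, 5 were called higher in dcl1-15 and 0 lower. Over all probe sets 18.3% were called higher and 20.8% lower. AT5G26630 did not pass and lay between 2.26 and 2.75 on all arrays. The mean level of the 6 markers was 6.31, 7.19 and 6.77 on wild-type replicates 1, 2 and 3 and 7.89, 8.16 and 8.36 on the dcl1-15 replicates, lowest on replicate 1 in both genotypes. Their part in the levels of the 16 genes was not tested. None of 7 listed embryo markers was among the genes measured.

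The rest of the pectin-cutting families held changes in both directions. Lists of each family were written from general knowledge after the 16 genes were known, and their other members are read against the 20.8% of all probe sets called lower and the 18.3% called higher. A gene is said to have risen or fallen where limma gave an adjusted p under 0.05 over all probe sets tested. Of 17 other measured pectate lyase genes 4 fell, 7 rose and 6 did not pass, with a median difference of 0.23. Leaving out replicate 2 of wild type gave 2 rises, and leaving out replicate 3 gave 4. Of 21 other polygalacturonase genes 7 fell, 9 rose and 5 did not pass, with a median of 0.22. The families were thus split, with some of their genes higher in dcl1-15 and others lower.

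The largest changes among the 17 other pectate lyase genes were rises of AT3G01270, from 6.23, 6.15 and 7.47 in wild type to 10.00, 9.10 and 8.61, and of AT59, from 3.26, 3.03 and 3.81 to 6.16, 4.53 and 4.38, beside a fall of AT4G13710 from 5.39, 5.03 and 5.303 to 3.24, 3.03 and 3.40. In limma these were differences of 2.61 ± 0.44 (SE, adjusted p = 0.00208), 1.66 ± 0.46 (adjusted p = 0.0208) and -2.01 ± 0.22 (adjusted p = 2.65e-04). AT59 did not pass without wild-type replicate 2 (adjusted p = 0.0698), and its difference was 1.04 without the arrays numbered 1. With values under log2 of 4 raised to 4 it missed the threshold as well (adjusted p = 0.240), and the difference of AT4G13710 was -1.24. Only 3 of the 17 had wild-type means of 7 or more, like the listed genes among the 16, and all 3 changed little. They were AT3G55140, which fell by 0.55, AT3G53190, which rose by 0.51, and AT3G07010, which rose by 0.94. Pectate lyase genes that met the levels in both genotypes were already among the 16 and so not among the 17. The small changes of the 3 are therefore no contrast with the listed genes. These 3 were chosen after their values were seen. Each lost its call without any 1 of several arrays, with highest adjusted p of 0.111, 0.0855 and 0.124 in that order.

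Among the other polygalacturonase genes, AT1G48100 and AT4G23820 had the largest falls. AT1G48100 measured 7.18, 6.08 and 6.41 in wild type and 3.59, 3.45 and 3.33 in dcl1-15, and fell by 3.10 (SE 0.31, limma adjusted p = 1.54e-04). AT4G23820 measured 7.78, 8.30 and 8.04 against 5.15, 5.12 and 5.43, and fell by 2.81 (SE 0.24, adjusted p = 6.57e-05). The genotypes did not overlap in either gene. AT3G07820 went the other way, from 5.21, 6.33 and 7.27 to 9.87, 8.73 and 8.54, a rise of 2.78 (adjusted p = 0.00375) that was 1.84 without the arrays numbered 1.

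**Figure D4:**
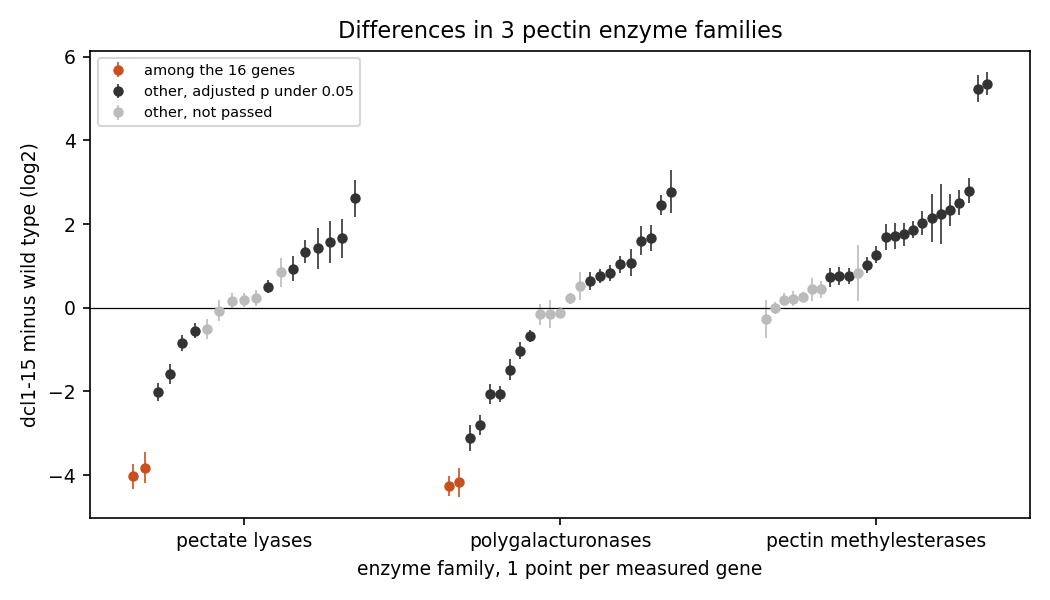
Difference between dcl1-15 and wild type (log2, vertical axis, with the limma SE as bars) for each measured gene of the pectate lyase, polygalacturonase and pectin methylesterase families, ordered by size within a family. The 4 genes of the 16 (orange) are the lowest of their families, a place favoured by the levels that chose them. Other genes past an adjusted p of 0.05 are dark and the rest grey, and no pectin methylesterase gene lies below -0.27.

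Pectin methylesterase genes, none of which is among the 16, had the most one-sided calls of the 7 added lists. Of 25 measured, 17 rose, 0 fell and 8 did not pass, against 18.3% of all probe sets called higher and 20.8% lower. The median difference of the 25 was 1.27. By unadjusted p under 0.05, 17 differed. AT3G10720 rose from 2.80, 3.41 and 3.62 to 8.77, 8.56 and 8.57 (difference 5.36 ± 0.28 SE, limma adjusted p = 6.68e-06). AT5G51490 rose from 4.60, 3.71 and 3.78 to 9.67, 9.31 and 8.81 (5.24 ± 0.33, adjusted p = 1.44e-05), and ATPMEPCRB from 5.55, 4.67 and 4.79 to 8.16, 7.60 and 7.66 (2.80 ± 0.31, adjusted p = 2.38e-04). In each of these 3 genes the lowest dcl1-15 value was well above the highest wild-type value. The plot of the pectin families sets these rises beside the low dcl1-15 levels of AT4G24780, AT5G48900, AT1G10640 and AT3G15720.

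Limits apply to that count. With values under log2 of 4 raised to 4, the number of pectin methylesterase genes that rose was 10, and 7 of the 25 had no value above log2 of 4. The rise of AT3G10720 was 4.63 with the floor. Without dcl1-15 replicate 1, and without both arrays numbered 1, 1 gene of the list fell. On dcl1-15 replicate 1 some genes stood apart, such as AT3G05610 at 7.17 against 4.97 and 4.92 on the other dcl1-15 arrays, and its rise was 2.15 with all arrays and 1.40 without that array. AT3G05610 was picked after its values were seen. The seed coat and endosperm markers that rose beside these genes are given above, and their part in the rises was not tested.

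Relatives of the other genes were mixed as well. Over all probe sets 20.8% were called lower and 18.3% higher, the background for each list of relatives below. Among 25 other MATE transporter genes 5 fell, 11 rose and 9 did not pass, with a median difference of 0.30. The largest changes were rises, of AT5G17700 from 6.26, 7.15 and 6.37 to 9.24, 9.14 and 9.64, of AT4G22790 by 2.13 and of AT5G65380 by 2.12 (limma adjusted p = 1.63e-04, 4.42e-04 and 1.08e-04). The largest fall among them was that of AT1G33110, by 1.71, beside the difference of -4.72 in AT1G71870. AT1G33110 was picked after its values were seen, and it missed the threshold with values under log2 of 4 raised to 4 (adjusted p = 0.148). Without wild-type replicate 2 or 3 or dcl1-15 replicate 1 or 2, 3 of the list fell. The number that rose was 7 without wild-type replicate 2 or dcl1-15 replicate 2.

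Of 4 other CC-type glutaredoxin genes, ROXY1, which is needed for petal and anther development, fell from 7.90, 6.57 and 7.03 to 5.21, 4.74 and 4.21 (difference -2.45 ± 0.39 SE, limma adjusted p = 0.00174). As in AT5G11930, both genotypes were highest on replicate 1. AT4G33040 rose by 1.67 (adjusted p = 0.00617) and the other 2 did not pass. Without the arrays numbered 1, and with centring on reference genes, 2 of the 4 fell.

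The acid phosphatase gene AT4G29270 lies directly beside AT4G29260, a gene of the same family. AT4G29260 measured 9.95, 8.55 and 8.60 in wild type and 9.31, 9.65 and 9.06 in dcl1-15, so its genotypes overlapped, and it did not pass (difference 0.30 ± 0.36 SE, limma adjusted p = 0.539). Without wild-type replicate 1 it rose by 0.76 (adjusted p = 0.00919). The difference in AT4G29270 was -4.82, so these adjacent genes were not lowered together. Of the 5 other acid phosphatase genes on the list, AT4G29260 included, AT4G25150 fell by 1.42 and AT5G51260 and AT2G39920 rose, by 1.46 and 0.66. AT2G39920 missed the threshold once values were raised to log2 of 4, on centring on reference genes, and on leaving out replicate 1 or 2 of wild type or replicate 1 or 3 of dcl1-15, with adjusted p of 0.0554 to 0.108 where an array was left out.

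Of 10 other HSP20-like genes 2 fell, 1 rose and 7 did not pass, and 6 of the 10 had no value above log2 of 4. AT1G20870 rose from 5.62, 5.14 and 4.37 to 7.25, 6.94 and 7.02 (difference 2.03, limma adjusted p = 0.00191). AT1G54850 and AT5G51440 fell by 0.90 and 0.69 (adjusted p = 0.0150 and 0.0221), but all values of AT5G51440 were under log2 of 4, so it did not differ once they were raised to 4. With the replicate block 4 fell, as many as without dcl1-15 replicate 1, whereas 0 fell without dcl1-15 replicate 2 and 1 without replicate 3. No other gene of the list came near the difference of -5.89 in AT5G47600, which was chosen by its levels. Only 1 of the 10 had a wild-type mean of 7 or more, so most had little room for such a fall.

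Neighbouring genes on the chromosome changed in both directions. The nearest measured gene on each side of the 16, other than the 16 themselves, gave 32 neighbours, of which 5 fell, 6 rose and 21 did not pass. Their median difference was -0.05, and the 15.6% that fell and 18.8% that rose lay near the 20.8% and 18.3% of the whole table. The largest change was a rise, of AT4G31000 from 4.78, 5.26 and 5.22 in wild type to 10.17, 9.93 and 10.09 in dcl1-15 (difference 4.97 ± 0.22 SE, limma adjusted p = 3.07e-06). AT4G31000 lies 2 genes from AT4G31020, whose difference was -2.78, so strong changes in opposite directions lay close together there. The largest falls among neighbours were those of AT1G71850, by 1.76 (adjusted p = 9.31e-04), which lies 5 genes from AT1G71870, and of AT1G77030, which fell by 1.59 (adjusted p = 0.00565) and lies directly beside AT1G77060.

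**Figure D5:**
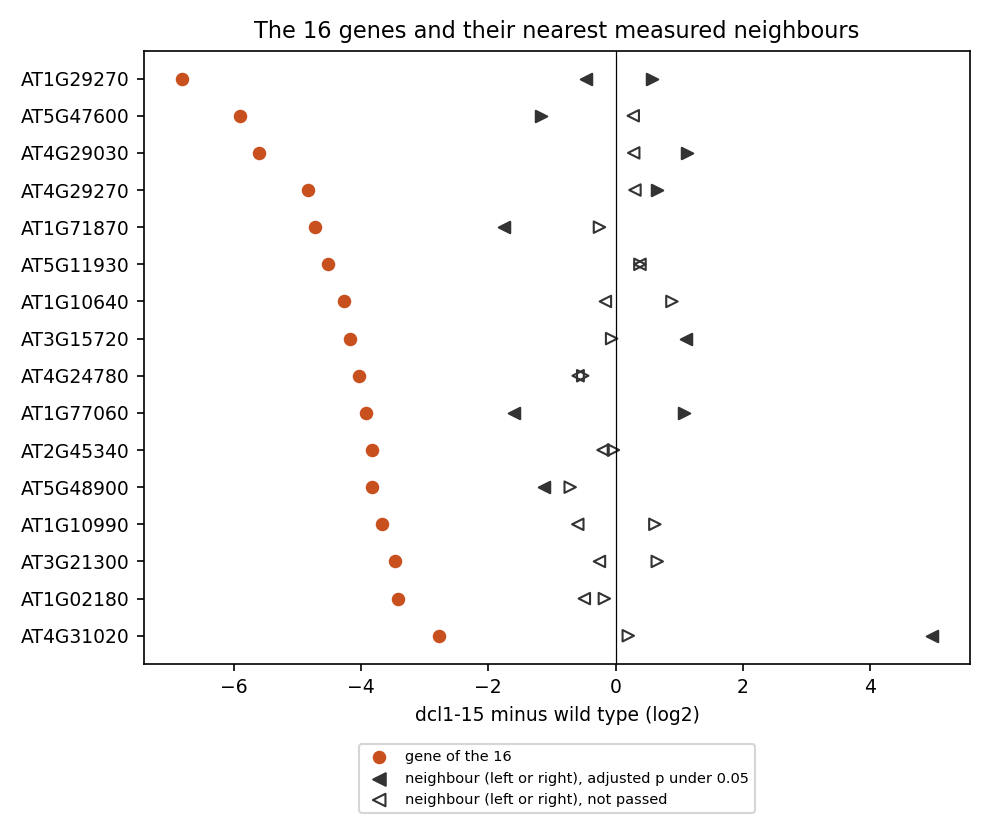
Difference between dcl1-15 and wild type (log2, horizontal axis) for each of the 16 genes (orange, rows ordered by size) and for the nearest measured gene to its left and right in gene order (triangles, filled where the limma adjusted p is under 0.05). Of 32 neighbours 11 are filled, 5 to the left of 0 and 6 to the right, and the far right point at 4.97 is AT4G31000.

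In the plot of neighbours no neighbour lies below -1.76. The levels that chose the 16 genes fix the place of the orange points far to the left, so their distance from the neighbours is no result. Of the 32, 9 were directly adjacent in the gene table, and of these 2 fell and 1 rose. With the replicate block 7 of the 32 fell and 9 rose. Without wild-type replicate 1 the falls numbered 10, and without both arrays numbered 1 there were 11 falls and 11 rises, while 3 rose without dcl1-15 replicate 2. The 16 genes themselves were spread out. The closest pair, AT4G29030 and AT4G29270, lay 33 genes apart and the next, AT1G10640 and AT1G10990, lay 47 apart.

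Lists of embryo tissues held few measured genes and none of the 16. Of 10 measured genes for cotyledons and lateral organs, of 45 names listed, 5 fell, 1 rose and 4 did not pass. Their median difference was -1.20, and 7 fell with the replicate block. Over all probe sets 20.8% were called lower and 18.3% higher. YAB3, JAG and NGA1, regulators of the sides, growth and shape of organs, fell by 3.90, 3.55 and 2.93. The wild-type values of YAB3, 10.47 to 11.04, were above the level of 7, but its dcl1-15 values of 6.44 to 7.31 were not under the level of 5. JAG and NGA1 had dcl1-15 values under 3 and wild-type values of 5.22 to 6.05, under the level of 7, and fell by 1.90 and 1.44 with the floor.

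Of 3 measured genes on the list for the outer cell layer, the receptor kinase gene CR4 fell by 0.92, GSO1 rose by 0.82 and FATB did not pass. GSO1 missed the threshold on leaving out replicate 3 of wild type or replicate 1 of dcl1-15 (limma adjusted p = 0.0574 and 0.0581). Of 2 measured genes of the early vascular tissue LHW, a transcription factor, fell by 1.05, and PHV differed by -0.36 (limma adjusted p = 0.123). The fixed list for heat shock proteins held 1 measured gene, Hsp70-2, which differed by 0.32 (adjusted p = 0.122) and rose under the replicate block (adjusted p = 0.0291) and without wild-type replicate 1. No measured gene carried a name from the surface lipid or receptor-like kinase lists.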

How the data were processed

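Arabidopsis embryos were measured on 6 single-colour arrays, 3 per genotype, from 50 ng of RNA each, per the labels' protocols. The deposited table holds normalized log2 values made by the authors. GCRMA and MAS5 are named in the submitters' processing notes, without a version or a word on which gave these values. The choice of rows in the table is likewise not given. For arrays, their number limits the precision. The 37 control probe sets were set aside. Of 17122 probe sets, 9631 name 1 gene, 365 several and 7126 none in the platform annotation used here, and 9584 of the first were found in the RefSeq gene table of TAIR10.1, used for names and gene order.

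The fit used limma 3.58.1 in R 4.3.3 (lmFit, eBayes with an intensity trend, Benjamini-Hochberg over all 17122 probe sets, threshold 0.05), tested on simulated data. Differences are dcl1-15 minus wild type. Where a gene had more than 1 probe set, the brightest on average was used. In all, 6702 probe sets (39.1%) were called, of which 46.9% were higher, and 36.1% with arrays centred on the reference genes AT2G28390 and AT4G34270.

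The 16 genes and all lists were chosen with earlier results of these data known. Fixed lists covered the outer cell layer, early vascular tissue, cotyledons and organs, heat shock proteins, surface lipids, receptor-like kinases and markers of seed coat, endosperm and embryo. Lists matched symbols and synonyms, since descriptions were not at hand, and 3 symbols that name other genes were left out (FDH, LCR, CRK). The 7 enzyme and protein family lists were added later. Named were the 10 members with the largest difference, up to 3 per role, those nearest the levels, and up to 3 called genes per list. AT1G10990 and AT3G21300 were named outside that rule. Relatives by protein sequence were not analysed here.

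Deviations from the genotype means correlated by 0.48, 0.21 and 0.36 between arrays of the same number, all above 0.1, so the number was taken to pair the samples. The basis is the data and not the labels, and unlike-numbered pairs reached 0.31. The main fit nevertheless holds no term for replicate number, so its SE, p and calls are unpaired. The replicate block is the fit with that term added. It gave 4591 lower and 3834 higher calls, against 3562 and 3140 in the main fit.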

Additional observations from a re-analysis of the deposited data

How the results depend on the processing

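The levels gave 16 genes. All 16 still met them after quantile normalization, which gave 16 in all, and after centring on reference genes, which gave 19. There were 16 to 21 with 1 array left out, 24 without both arrays numbered 1, 200 with wild type at 6 or more and dcl1-15 under 6, 36 with genotype means, and 1 with limits of 8 and 4. The difference of each of the 16 stayed negative under all settings run. The floor, which raises values under log2 of 4 to 4, acts on dim genes, and the filter on means of 5 or more leaves fewer genes tested. For the other changes below the cause was not tested.

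With 1 array left out, all probe sets gave 2293 to 4463 lower calls and 2193 to 3513 higher, the fewest lower without dcl1-15 replicate 2, against 3562 and 3140 with all arrays. Neighbours gave 5 to 10 lower and 3 to 9 higher, pectate lyases 3 to 4 lower and 2 to 8 higher, MATE genes 3 to 6 lower and 7 to 11 higher. HSP20-like genes gave 0 to 4 lower, pectin methylesterases 0 to 1 lower and 13 to 17 higher. Acid phosphatases gave 1 to 2 higher, and the outer layer and heat shock lists 0 to 1 higher each. Leaving out replicate 2 of wild type gave 2 pectate lyase rises, and leaving out replicate 3 gave 4.

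With the floor, all probe sets gave 2275 lower and 1886 higher calls, pectate lyases 2 and 3, MATE genes 2 and 6, polygalacturonases 5 higher, pectin methylesterases 10 higher, acid phosphatases 1 higher and HSP20-like genes 1 lower. With means of 5 or more there were 1967 higher calls in all, and for pectate lyases 1 lower and 3 higher, polygalacturonases 3 and 5, MATE genes 2 and 7, organ genes 2 and 0, pectin methylesterases 10 higher, acid phosphatases 0 higher and HSP20-like genes 0 lower. Centring on reference genes gave pectate lyases 4 higher, acid phosphatases 1 higher, HSP20-like genes 4 lower, and glutaredoxins and the vascular list 2 lower each. That centring and the family lists were chosen after seeing the data.

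Without both arrays numbered 1, neighbours gave 11 lower and 11 higher, HSP20-like genes 4 lower, glutaredoxins 2 lower, organ genes 2 higher, and heat shock and pectin methylesterase genes 1 higher and 1 lower respectively. Only adjacent neighbours gave 2 lower and 1 higher. The replicate block gave 4591 lower and 3834 higher calls in all, 4 lower for HSP20-like genes and 1 higher for heat shock, and moved no other list count by over 1.5 times. Relatives by protein sequence were not run.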
